A study of Mus musculus with 8 samples.

Results

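Odorant receptors reach the cilia of olfactory sensory neurons only with the help of other proteins, and 7 genes for such helpers and partners were followed here: Rtp1, Rtp2, Reep1, Ric8b, Stoml3, Umodl1 and Faim2. They were chosen by symbol, and all 7 were found among the 54982 genes of the deposited table and passed the filter on low values, which kept 21974 genes. Mice were 30 days old, and RNA was sequenced from their olfactory mucosa, the tissue that holds the sensory neurons of smell. The study compared 4 control libraries with 4 libraries from mice lacking both TE1 and TE2, a pair of enhancers of the trace amine-associated receptor (Taar) genes. All 8 samples were labelled male and of the mixed 129S6;C57BL/6J background. The labels give no other allele or treatment for either group. Replicates carry only a number, and nothing in the labels says that each is a separate animal, so p-values measure the spread between these libraries, which may be partly technical.

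Olfactory receptors fold poorly and are held back in the endoplasmic reticulum when made in cells that lack partner proteins. The receptor-transporting proteins and the REEP family were found as membrane proteins that let receptors reach the surface of cultured cells. At the cilium a receptor bound by odorant activates the G protein Golf, which switches on adenylyl cyclase and so opens the cyclic nucleotide-gated channel. In mature olfactory sensory neurons the ciliary membrane also carries stomatin-like proteins. Faim2 differs in kind: it encodes lifeguard, a membrane protein known for blocking Fas-triggered cell death in neurons, and a part of it in receptor transport is not claimed here.

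Rtp1 and Rtp2 are close paralogs on chromosome 16, and their likeness bears on how well reads can be told apart. Over 666 aligned bases of their coding sequences (792 bases in Rtp1 and 672 in Rtp2, GENCODE M21), 547 were identical, or 82.1%. Their longest stretch with no difference is 47 bases, from coding position 565 in Rtp1 and 457 in Rtp2, and is shown because a read lying inside it could come from either gene. Transcripts of Faim2 and its relative Tmbim1 also share a run of 47 bases, so the same holds there.
Rtp1 and Rtp2 shared stretch: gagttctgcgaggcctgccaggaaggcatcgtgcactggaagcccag
The sources used here give neither read length nor the handling of reads with several matches. No other gene of the deposited table that was matched to GENCODE M21 shares an exonic base with any of the 7 genes on either strand. The 907 rows without a match could not be checked. AC165951.1 and AC165951.3, antisense to Umodl1, are absent from that table, and their exons were not compared.

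Promoters from RefSeq (GRCm38.p6, 250 bases before to 50 after the start) were at hand for 5 of the 7 genes: Rtp2, Reep1, Ric8b, Stoml3 and Umodl1. They were searched on both strands for the core bound by the Ebf (Olf-1) factors, known from the promoters of genes of olfactory neurons. The 9-letter core TCCCNNGGG was found in Reep1 and Umodl1, against 6.56% of 32851 promoters of the same length. The same core followed by an A, a palindrome of 10 letters, was in 0 of the 5, against 0.904% of all promoters. The homeodomain letters TAATTA were in 0 of the 5 and in 5.29% of all, and the looser TAATNA, which contains them, was in Stoml3 and Umodl1 and in 26.5% of all. Both windows with a match to the Ebf core are printed with the matched letters in capitals, each 30 bases on the plus strand of GRCm38.p6, which is also the gene's strand. The first lies at chr6:71707605-71707634, with the match beginning 66 bases before the RefSeq start of Reep1. The second lies at chr17:30954517-30954546, with the match 156 bases before that of Umodl1. Both GENCODE genes begin upstream of these RefSeq starts, so the distances do not apply to the gene coordinates given below.
Reep1: gaggcagcccTCCCTGGGGgttcggaggcc
Umodl1: atgcaggcgcCCCCAGGGAcacagccatgc
In Umodl1 the letters of the core are read on the other strand. Such a match describes the letters of the window only.

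Reads assigned to genes numbered 31655524 to 50748777 per library. Each value was brought to a common depth with 1 size factor per library, and these are called scaled reads below. The 14 olfactory Taar genes, the outcome of the deletion, held 2941 to 3594 reads in control and 11 to 83 in deletion libraries. Deletion replicate 3 went against its label: Xist, which is made from an inactive X chromosome, stood at 15300 scaled reads against 4.86 to 86.9 in the other libraries, and the Y-linked Ddx3y at 5.69 against 2716 to 3087. Control replicate 2 stood apart in several cell type markers. The summed scaled reads of 10 markers of mature olfactory sensory neurons were 355866 there, and 418303 to 449617 in the other 7 libraries, with none of the 10 markers at 0 anywhere; 7 of the 10 also stand in the Golf signalling list used further on. Single markers differed, from 74.2% (Cnga2) to 99.4% (Adcy3) of the mean of the other controls. Control replicate 2 was also the lowest control for the summed markers of respiratory epithelium (188676 against 274899 to 341535), of sustentacular cells (438846 against 491009 to 529240) and of immature neurons (70603 against 82180 to 88534). It was lowest for microvillar (2585 against 2873 to 3348) and immune cells (1886 against 1981 to 2266) too. It was the highest control for globose basal cells (10225 against 9424 to 9582) and vomeronasal neurons (7516 against 6314 to 7064). The same held for ensheathing glia (8032 against 4070 to 5842). The fold changes of the 7 genes are therefore given with and without control replicate 2 and deletion replicate 3.

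Together the 7 genes took 0.528% to 0.615% of all reads, or 5284 to 6153 CPM. Counting error is small at this depth, since the lowest count of any of the 7 in any library was 3380 reads, for Reep1. Levels can be compared between genes only per length, and were set on a scale of reads per kilobase of exon, scaled to a common total over all genes with a known length, as in TPM. On this scale Stoml3 was highest, at 2477 ± 233 in controls (SD, n = 4), and Reep1 lowest, at 66.8 ± 9.68. Omp, the abundant marker of mature neurons, stood at 5206 ± 827 on the same scale. In each of the 8 libraries Stoml3 was 4.06 to 4.81 times as high per length as Umodl1.

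Umodl1 (569 ± 59.3 per length in controls), Rtp1 (539 ± 60.2) and Ric8b (520 ± 59.1) followed and changed places from library to library. The ratio of Umodl1 to Rtp1 ran from 0.920 to 1.07, and that of Rtp1 to Ric8b from 0.973 to 1.10, so the order among these 3 lay within the spread. Rtp2 came next in all 8 libraries, with 422 ± 73.9, and Ric8b was 1.14 to 1.34 times as high. A wide step followed: Rtp2 was 4.04 to 6.09 times as high per length as Faim2, at 86.1 ± 10.1. This step rests on exon length, merged over all annotated transcripts: 2674 bases for Rtp2 and 12520 for Faim2. Their mean scaled reads in controls were close, at 17286 and 16460. Where the transcripts in use are shorter than the merged length, this scale sets a gene too low, and their lengths were not tested. Faim2 stayed above Reep1 in all 8 libraries, by 1.08 to 1.49 times. Even Reep1 exceeded 91.8% of the tested genes in level per length, and Stoml3 exceeded 99.8%.

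**Figure D1:**
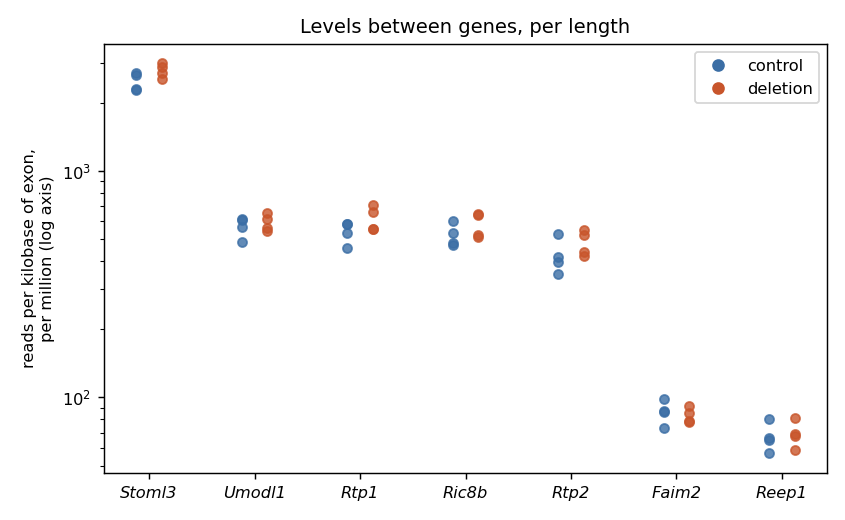
Level of each gene in each library, in reads per kilobase of exon at a common total (log axis), with 4 control libraries in blue and 4 deletion libraries in orange, each point a library. Stoml3 lies above all others, Umodl1, Rtp1 and Ric8b share a range, and Faim2 and Reep1 lie lowest.

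None of the 7 genes was called between deletion and control. Over all tested genes, 16 of 21974 passed an adjusted p under 0.05 (limma, Benjamini-Hochberg), a background of 0.0728%. At an unadjusted p under 0.05, 0 of the 7 passed by limma, against 3.50% of all tested genes. Faim2 fell under 0.05 by limma with library totals (unadjusted, 0.0487), TMM scaling (0.0495) and mature neuron scaling (0.0311), and Rtp2 without control replicate 1 (0.0271). The quasi-likelihood test of edgeR, run on whole reads, called 0 of the 7 and put 0 below an unadjusted p of 0.05. DESeq2 called 0 and put 1, Faim2, below it. Their median log2 fold change, deletion minus control, was 0.0747 (on the log2(scaled reads + 1) scale, as all fold changes here), beside 0.0183 over all tested genes. That median was -0.0218 without control replicate 2, -0.0106 when scaled by mature neuron markers and 0.0945 without deletion replicate 3, so its sign rested on control replicate 2 and the scaling. The 95% intervals of the 7 genes together spanned -0.26 to 0.35, so that a rise above 1.28-fold or a fall below 0.835 of the control level lay outside every one of them. A p that misses the threshold does not show that the levels were equal.

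**Figure D2:**
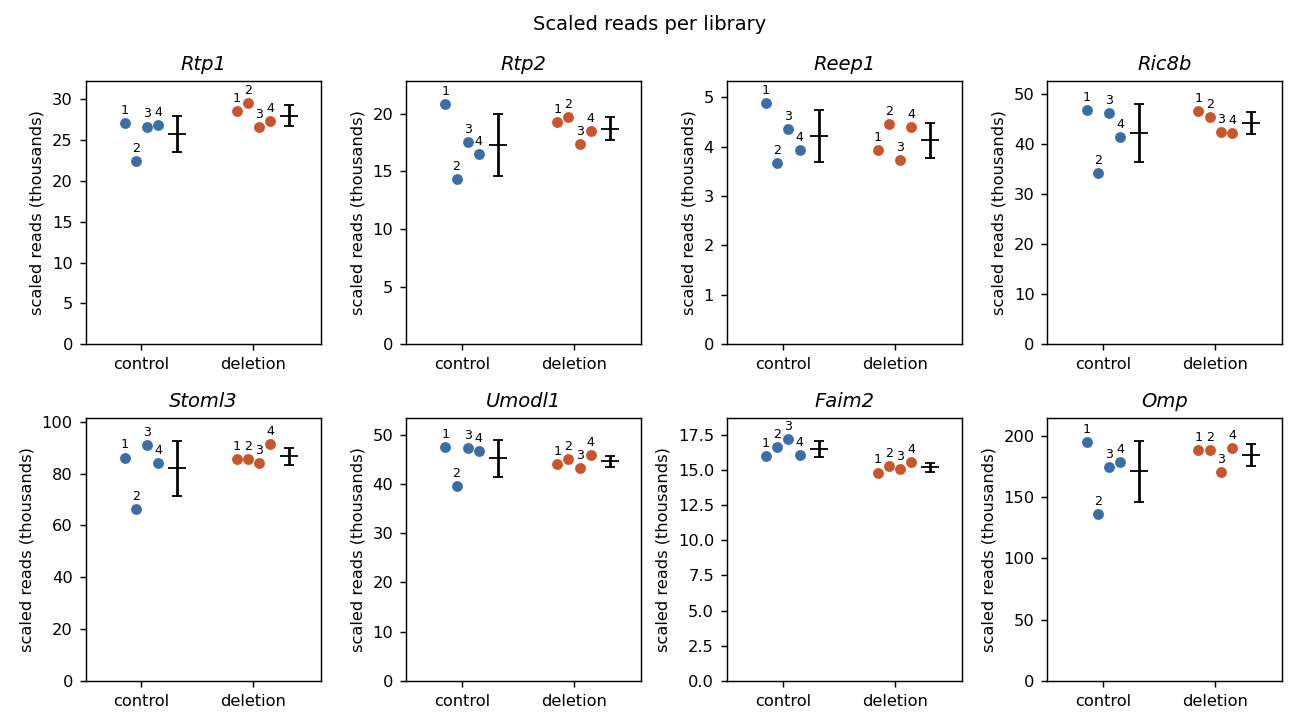
Scaled reads, on axes from 0, of the 7 genes and Omp in each library. Numbers are replicates, and the bar beside each group is its mean with SD (n = 4). Control replicate 2 is the lowest control for every gene shown but Faim2, and only for Faim2 do the groups not overlap.

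The receptor chaperones Rtp1 and Rtp2 had somewhat higher means in deletion libraries, by amounts within the spread. Rtp1, short for receptor-transporting protein 1 (ENSMUSG00000033383.6, chromosome 16, 23429133 to 23433960, plus strand of GRCm38, protein-coding), had 27073, 22395, 26650 and 26825 scaled reads in control replicates 1 to 4. In deletion replicates 1 to 4 it had 28572, 29479, 26590 and 27278. Control replicate 2 was the lowest of the 8, deletion replicates 1 and 2 were the highest, and the groups overlapped. The means were 25736 ± 2234 and 27980 ± 1294 (SD, n = 4). On the log2 scale Rtp1 differed by 0.12 ± 0.0829 (SE; 95% interval -0.0576 to 0.31; limma adjusted p = 0.869). Without control replicate 2 the log2 fold change of Rtp1 was 0.0584, and without deletion replicate 3 it was 0.15.

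Rtp2 encodes a second receptor-transporting protein, and mice that lack both Rtp1 and Rtp2 are known to bring fewer receptors to their cilia. Its gene (ENSMUSG00000047531.9, 23925548 to 23932394, minus strand) lies 492 kb from Rtp1. Controls 1 to 4 held 20803, 14338, 17530 and 16472 scaled reads of Rtp2, and deletion replicates 1 to 4 held 19235, 19672, 17393 and 18489. Control replicate 1 was the highest library and control replicate 2 the lowest, so the deletion values lay within the control range. For Rtp2 the log2 fold change was 0.12 ± 0.11 (SE; 95% interval -0.11 to 0.35; limma adjusted p = 0.869). Leaving out control replicate 2 gave 0.0390, leaving out control replicate 1 gave 0.22 (limma, adjusted p = 0.446), and leaving out deletion replicate 3 gave 0.16.

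The balance of both chaperones was also set side by side in each library. Rtp1 scaled reads per Rtp2 scaled read were 1.30, 1.56, 1.52 and 1.63 in controls 1 to 4, and 1.49, 1.499, 1.53 and 1.48 in deletion replicates 1 to 4. The controls spread more widely than the deletion libraries, which lay inside the control range. The log2 ratio differed by -0.000852 between the groups (exact permutation test, two-sided, p = 1 over 70 splits, where the smallest p that 4 against 4 can give is 0.0286).

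Reep1 belongs to the family of membrane-shaping proteins of the endoplasmic reticulum, and is the least abundant of the 7 per length. The gene (ENSMUSG00000052852.8, chromosome 6, 71707561 to 71810710, plus strand) had 4870, 3672, 4353 and 3927 scaled reads in controls 1 to 4. Deletion replicates 1 to 4 had 3930, 4453, 3731 and 4390. The highest and the lowest library were both controls. For Reep1 the log2 fold change was -0.0233 ± 0.0980 (SE; 95% interval -0.24 to 0.19; limma adjusted p = 0.958), and its sign was not stable: leaving out control replicate 1 gave 0.0501, deletion replicate 3 gave 0.0238, and control replicate 2 gave -0.0857.

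Ric8b encodes a guanine nucleotide exchange factor that binds and stabilises the alpha subunit of Golf, and is the receptor's partner on the signalling side. The gene (ENSMUSG00000035620.15, 84917616 to 85018337, plus strand) shares chromosome 10 with the Taar cluster but starts 60.8 Mb beyond Taar9. In controls 1 to 4, Ric8b had 46771, 34264, 46262 and 41467 scaled reads, and in deletion replicates 1 to 4 it had 46642, 45306, 42320 and 42284. Only control replicate 2 lay outside the range of the others by a wide margin, on the low side. Deletion minus control was 0.0747 ± 0.10 on the log2 scale (SE; 95% interval -0.15 to 0.30; limma adjusted p = 0.885). Without control replicate 2 it was -0.0218, and without deletion replicate 3 it was 0.0945.

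Stoml3 encodes the stomatin-related olfactory protein of the ciliary membrane, which in mice is also needed by touch receptors of the skin. The gene (ENSMUSG00000027744.4, chromosome 3, 53488653 to 53508502, plus strand) had 86173, 66468, 91056 and 84125 scaled reads in controls 1 to 4 and 85497, 85681, 83929 and 91417 in deletion replicates 1 to 4. Apart from control replicate 2, the 7 libraries lay between 83929 and 91417. Stoml3 had a log2 fold change of 0.0893 ± 0.10 (SE; 95% interval -0.13 to 0.31; limma adjusted p = 0.876), and of -0.00806 without control replicate 2 and 0.10 without deletion replicate 3.

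Umodl1 encodes olfactorin, a relative of uromodulin with a zona pellucida domain that was first found in olfactory neurons. The gene (ENSMUSG00000054134.13, chromosome 17, 30954640 to 31010710, plus strand) had 47419, 39575, 47296 and 46653 scaled reads in controls 1 to 4. In deletion replicates 1 to 4 it had 44118, 45150, 43230 and 45865. All 4 deletion libraries lay below controls 1, 3 and 4 and above control replicate 2. Umodl1 had a log2 fold change of -0.0171 ± 0.0813 (SE; 95% interval -0.19 to 0.16; limma adjusted p = 0.964), of -0.00227 without deletion replicate 3, and of -0.0800 without control replicate 2, where all controls lay above all deletion libraries, as for 2.04% of the genes tested then.

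Faim2 was the only gene of the 7 whose groups did not overlap with all libraries used. The gene (ENSMUSG00000023011.8, chromosome 15, 99497012 to 99528165, minus strand) had 15991, 16623, 17193 and 16031 scaled reads in controls 1 to 4 and 14805, 15286, 15039 and 15546 in deletion replicates 1 to 4. Every control lay above every deletion library, as was the case for 1.22% of all tested genes. The means were 16460 ± 568 and 15169 ± 319 (SD, n = 4). Faim2 differed by -0.12 ± 0.0652 on the log2 scale (SE; 95% interval -0.26 to 0.0253) and was not called (limma adjusted p = 0.869). That SE and interval rest on a variance moderated over all tested genes. The residual SD of Faim2 alone was 0.0410 on the log2 scale, beside a median of 0.204 over all tested genes. In the authors' deposited table Faim2 has a p-value of 0.0470 and an adjusted p-value of 0.923. Unadjusted p-values were 0.0980 by limma, 0.0648 by edgeR and 0.0204 by DESeq2. The log2 fold change of Faim2 stayed negative in all 21 alternative settings, from -0.20 to -0.0962, and was -0.11 without control replicate 2 and -0.11 without deletion replicate 3. Settings that change only the filter, moderation, block or tested fold cannot alter this value.

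**Figure D3:**
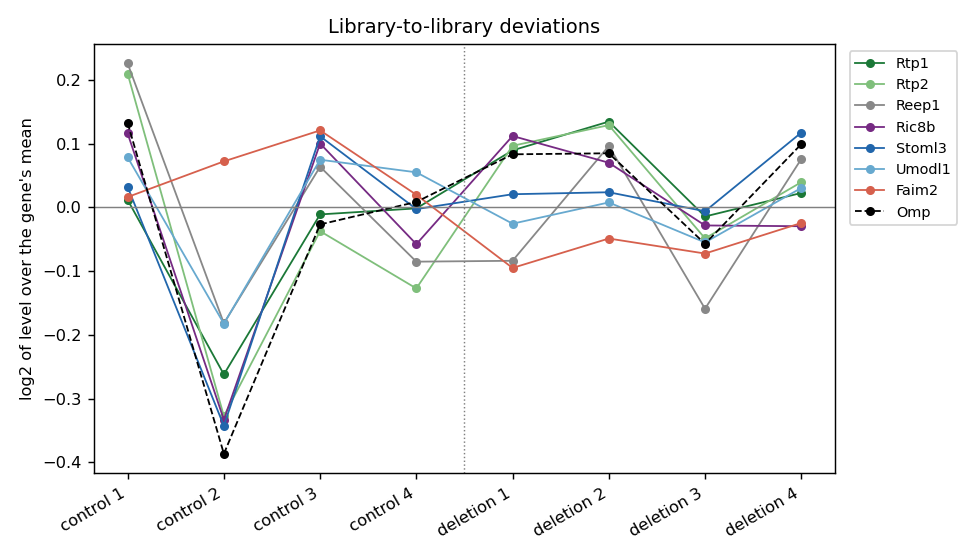
Log2 of each gene's scaled reads over its own mean of the 8 libraries, by library; Omp is dashed. In control replicate 2, Omp and 6 of the 7 genes dip together while Faim2 does not.

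Control replicate 2 was the lowest control for 6 of the 7 genes. Without it the control SD of Stoml3 went from 10727 to 3561 and that of Rtp1 from 2234 to 213, whereas that of Rtp2 went only from 2694 to 2258. There Ric8b and Stoml3 stood at 76.4% and 76.3% of the mean of the other 3 controls, and Rtp2 at 78.5%. Rtp1, Reep1 and Umodl1 stood at 83.4%, 83.8% and 84.0%. Omp was at 74.4%, and Faim2 at 101%. Gfy, which encodes the Golgi protein Goofy of olfactory neurons, went the other way, with 6396 scaled reads in control replicate 2 and 2757 to 3097 in the other controls. Fewer mature neurons, less RNA per neuron and a technical difference cannot be told apart there in bulk tissue, and none was tested.

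Set against the mature neuron markers, the sum of the 7 genes kept a nearly fixed share. Their summed scaled reads per 100 scaled reads of the 10 markers were 55.4, 55.5, 57.8 and 56.3 in controls 1 to 4, and 54.4, 54.9, 54.8 and 56.3 in deletion replicates 1 to 4. For this sum control replicate 2 was no longer apart, and the groups overlapped. Single genes varied more. Over all libraries the SD was 1.96% of the mean for the sum, 2.82% for Rtp1, 7.39% for Reep1 and 11.5% for Faim2. Omp alone made up 38.2 to 43.7 of each 100 marker reads. When all genes were rescaled by these markers, the log2 fold change was 0.0385 for Rtp1, 0.0393 for Rtp2, 0.00402 for Stoml3 and -0.0106 for Ric8b. It was -0.11 for Reep1, -0.10 for Umodl1 (95% interval -0.21 to 0.00273) and -0.20 for Faim2 (95% interval -0.38 to -0.0226). None of the 7 was called on that scale either (limma adjusted p = 0.948 for Umodl1 and Faim2, with unadjusted p = 0.0551 and 0.0311). This rescaling moved the median of all tested genes to -0.0666, beside which these values stand.

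**Figure D4:**
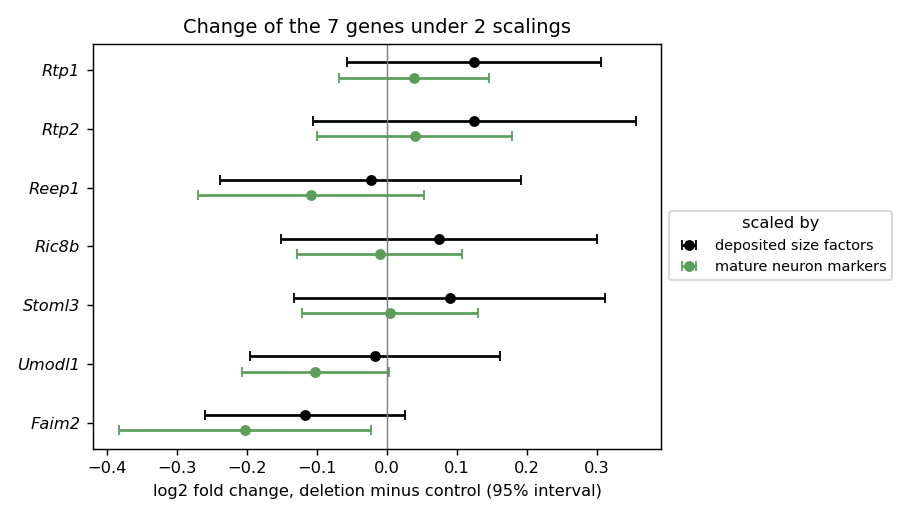
Log2 fold change, deletion minus control, with 95% interval, for each of the 7 genes, scaled by the deposited size factors (black) or by 10 mature neuron markers (green). The intervals reach 0 for every gene under the deposited factors, and for all but Faim2 under the marker scaling.

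On the marker scale the groups of Umodl1 came apart, by a narrow gap, and those of Faim2 met. All controls lay above all deletion libraries for 2.03% of the tested genes on that scale. Umodl1 scaled reads per 100 marker reads were 10.5 to 11.2 in controls and 9.89 to 10.5 in deletion libraries, with the lowest control at 10.547 and the highest deletion library at 10.534. For Faim2 they were 3.56 to 4.67 and 3.32 to 3.57. The highest Faim2 share, 4.67, belonged to control replicate 2, where the markers themselves were low, and the overlap came from control replicate 1 and deletion replicate 4.

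Markers of other cell types were followed beside these values. The summed markers of sustentacular cells, the supporting cells of the epithelium, were 438846 to 529240 scaled reads in the controls but 531774 to 648796 with the deletion, so the groups did not overlap. Of the 9 listed, Muc2 was at 0 in at least 1 library. The 8 markers of respiratory epithelium summed to 188676 to 341535 in controls and 349911 to 380452 in deletion libraries, with Scgb1a1 at 0 in at least 1 library. Immature neuron markers, 8 genes with none at 0, summed to 70603 to 88534 and 78559 to 86949, and overlapped. No marker of these 3 lists was called (limma, 0 of 8, 0 of 7 and 0 of 8 tested), against 0.0728% of all tested genes. Unadjusted limma p was under 0.05 for 1, 2 and 0 of them, against 3.50% of all tested genes. Single markers with all deletion libraries above all controls numbered 1, 2 and 0, against 0.983% of all tested genes. In each of the other 9 lists the summed markers overlapped between groups and no gene was called. The 5 tested markers of olfactory bulb neurons had a median log2 fold change of -0.63, with 3 below 0 and 2 at an unadjusted limma p under 0.05. Their sums, with Slc32a1 at 0 in at least 1 library, were low, at 556 to 851 scaled reads in controls and 599 to 759 with the deletion. All 5 erythroid markers had negative values, with a median of -0.31 and sums of 979 to 2852 and 1147 to 1665. The part of any of these lists in the values of the 7 genes, Faim2 included, was not tested.

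Relatives of the 7 genes were measured as well. Of 19 listed paralogs, 16 were tested and 0 were called (limma; 0 at an unadjusted p under 0.05), with a median log2 fold change of 0.10, 14 above and 2 below 0. Over all tested genes 0.0728% were called and 3.50% had an unadjusted limma p under 0.05. Of those genes 11944 lay above and 10030 below 0, with a median of 0.0183. Scaled by mature neuron markers, the paralog median was 0.0170, with 10 above and 6 below 0, beside -0.0666 over all tested genes. Without control replicate 2 the paralog median was 0.0502, with 11 above and 5 below 0, and without deletion replicate 3 it was 0.12. Among the paralogs left untested, Rtp3 and Umod, whose products belong in the main to liver and kidney, had 15 and 14 reads over all 8 libraries. Rtp4, the interferon-induced member of the transporter family, had means of 171 ± 22.9 (control) and 166 ± 24.3 (deletion) scaled reads, far below Rtp1 and Rtp2 also per length (5.33 ± 1.31 in controls). Of the REEP genes, Reep5 was at 39.6 ± 8.41 and Reep3 at 21.1 ± 4.36 per length in controls, both below the 66.8 of Reep1, and Reep2 was lowest with 1.58 ± 0.12.

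The stomatin relatives showed a different order. Stom, the founding member, which is found widely in the body, stood at 2817 ± 430 per length in controls beside 2477 ± 233 for Stoml3. Stoml1 and Stoml2 were at 70.6 ± 10.9 and 28.0 ± 3.90. Stom fell to 73.0% of the other controls' mean in control replicate 2, close to the 76.3% of Stoml3, and its log2 fold change was 0.10 ± 0.12 (SE; limma adjusted p = 0.876), but -0.00840 without control replicate 2 and 0.15 without deletion replicate 3. Ric8a, listed as Ric8, stood at 36.6 ± 8.12 per length in controls against 520 for Ric8b, and among the relatives of Faim2, Tmbim6 was highest at 920 ± 196.

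Downstream of the receptor, of 16 genes for Golf signalling and other receptor partners, all tested, 0 were called (limma), against 0.0728% of all tested genes. An unadjusted limma p under 0.05 was found for 1 of them, against 3.50% of all tested genes. The median log2 fold change was 0.0567. Leaving out control replicate 2 gave 0.0329, leaving out deletion replicate 3 gave 0.0536, and scaling by mature neuron markers gave -0.0285. On the marker scale the median of all tested genes was -0.0666. Several of the listed genes, Gnal, Adcy3 and Cnga2 among them, are themselves such markers, so the list's value is not independent of that scaling. Gnal, the alpha subunit of Golf that Ric8b binds, had means of 81422 ± 6188 (control) and 87523 ± 3891 (deletion) scaled reads, 0.11 ± 0.0824 on the log2 scale (SE; limma adjusted p = 0.869), and 0.0712 without control replicate 2 and 0.0771 without deletion replicate 3. Adcy3, the adenylyl cyclase of the cilium, was at 32831 ± 716 and 32590 ± 2597. In control replicate 2 Gnal stood at 90.6% of the other controls and Adcy3 at 99.4%, whereas the channel subunit Cnga2 was at 74.2%. Calr, which encodes the chaperone calreticulin, was the gene with an unadjusted p under 0.05: its deletion libraries, 23616 to 24554 scaled reads, all lay above its controls, 17824 to 23399, as was the case for 0.983% of all tested genes. Its log2 fold change was 0.22 ± 0.0914 (SE; limma adjusted p = 0.869), and 0.15 without control replicate 2 and 0.21 without deletion replicate 3.

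**Figure D5:**
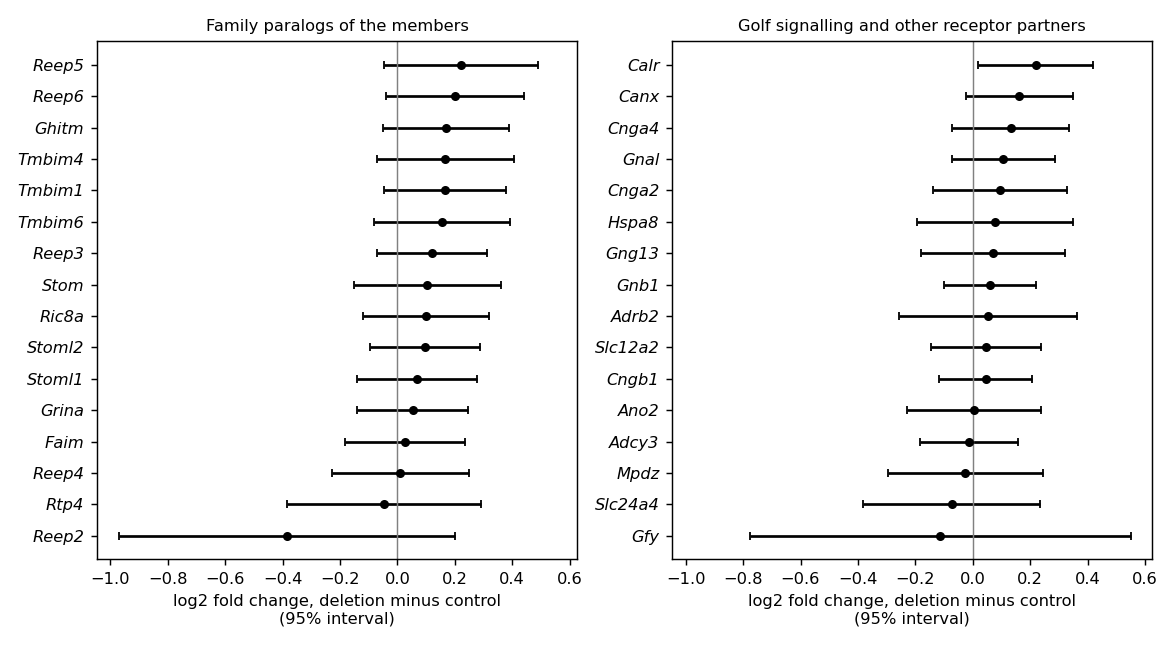
Log2 fold change, deletion minus control, with 95% interval, of the 16 tested paralogs (left) and the 16 genes of Golf signalling and other partners (right). Only the interval of Calr leaves out 0, and none of these genes was called after adjustment.

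Across the 8 libraries, the 15 pairs among the 6 genes other than Faim2 moved together, with Pearson's r of log2 values from 0.51 to 0.89 and a median of 0.77, as a description of libraries that share control replicate 2. Without that library their r lay between -0.30 and 0.70, median 0.39. With Omp, Rtp1 reached 0.92 and Rtp2 0.91 over 8 libraries, and 0.54 and 0.83 over the other 7. Faim2 ran against Omp at -0.46, and at -0.24 without control replicate 2.

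Among all 21974 tested genes, those most like each of the 7 in log2 values over the 8 libraries were named by the highest Pearson's r, again as a description, since 5 to 285 genes passed 0.95 for any one of them. Rtp1 was nearest to Aldoc (0.98) and Prpf18 (0.98), and Rtp2 to Ranbp6 (0.996) and Yrdc (0.996). For Reep1 they were Igsf21 (0.97) and Dmtf1 (0.96), and for Ric8b Gtpbp10 (0.997) and Drc1 (0.99). Stoml3 was nearest to Snrpb2 (0.99) and Sumo2 (0.99), and Umodl1 to Rbak (0.97) and the odorant receptor Olfr263 (0.97). Faim2 was nearest to Kcnc2 (0.97) and RP23-137A24.3 (Gm18310 in the reference annotation, 0.97), both of which were low, with control means of 33.2 and 67.4 scaled reads and deletion means of 18.1 and 42.4.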

How the data were processed

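The 8 olfactory mucosa samples were profiled by ribosome-depleted, stranded total RNA sequencing, per the labels. The submitters' processing notes name the aligner STAR (2.6.0), DESeq2 and the build GRCm38.p6; which counter and annotation served is unknown from the sources at hand. The authors' deposited values are a signal of read counts divided by a size factor: multiplied back, 100% of non-zero values were whole within a tolerance of 0.001, and these whole reads were recovered. Per the file headers, the table also holds the authors' log2 fold change, a p-value and adjusted p-value, and a test statistic, used nowhere here, which is a score of that deposited comparison. Columns of the deletion group were matched to samples by number. Rows were matched to GENCODE M21, the same assembly, by identifier (54075 of 54982), for coordinates and exon lengths.

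The test was limma 3.58.1 (R 4.3.3) on log2(scaled reads + 1) with trend and robust moderation, after filterByExpr of edgeR 4.0.16 (minimum count 10), with Benjamini-Hochberg adjustment over all 21974 genes and a threshold of 0.05. The edgeR quasi-likelihood test and DESeq2 1.42.0, run on recovered reads, other scalings, pseudocounts and filters, and leaving out libraries were alternatives. The members and gene lists were chosen with earlier results of these data known. Named genes were the 7, their listed relatives, and the 2 genes with the highest r for each. Motifs were chosen after the promoters were seen. Intervals are 95% intervals of the mean log2 difference. They rest on the spread between libraries, with each gene's variance moderated over all tested genes.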

Additional observations from a re-analysis of the deposited data

Results flagged for a closer look

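In 2 of 18 groups of 4 libraries examined, the lowest library stood further from the rest than Dixon's 95% limit allows, where chance flags about 1 in 20. Both were controls, and the low library was control replicate 2. For Rtp1 the gap to the next control made up 0.910 of the control range (22395 against 26650 to 27073 scaled reads), and for Umodl1 0.902 (39575 against 46653 to 47419). The summed mature neuron markers were also lowest in that library, and their part in these gaps was not tested.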

How the results depend on the processing

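No gene of the 7 was called in any of 21 alternative settings, and Rtp1, Rtp2 and Faim2 kept their sign in all of them. Changes of filter, moderation, block or tested fold cannot move a fold change, so the sign was fixed in advance in those settings. With 1 library left out, the log2 fold change ran from 0.0584 to 0.15 for Rtp1, 0.0390 to 0.22 for Rtp2, -0.13 to -0.0962 for Faim2, -0.0857 to 0.0501 for Reep1, -0.0218 to 0.13 for Ric8b, -0.00806 to 0.14 for Stoml3 and -0.0800 to 0.00696 for Umodl1. Ric8b also turned negative when scaled by mature neuron markers (-0.0106) and with control 2 and deletion 3 both left out (-0.00199), a setting chosen after seeing the data. The difference in log2 ratio of Rtp1 to Rtp2 ran from -0.0684 to 0.0394 with 1 library left out, and was 0.00920 without both; the cause was not tested. Genes called over the whole table numbered 16, 10 where a mean of 50 reads was required, 13 to 31 with 1 library left out (31 without deletion replicate 4) and 23 by DESeq2. With the replicate number as a block, 14 genes and none of the 7 were called. Such a block cannot move a fold change where each number occurs once per group. Same-numbered libraries deviated together with correlations of 0.33, 0.0878, -0.17 and 0.0533, and only 1 of 4 controls was most like its own number. These 4 values cannot show whether same-numbered libraries share more than a number. The fit with no filter moved the median of all genes to -0.20.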
